A study of Mus musculus with 17 samples.

Results

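The immediate early genes described here are 10 transcripts of a group known for rapid induction when tissue is taken apart into single cells: Fos, Fosb, Jun, Junb, Jund, Egr1, Atf3, Ier2, Dusp1 and Zfp36. Among them, Jund is known rather for steady expression in resting cells. The 10 were chosen by gene name, with earlier results of these data known. They are 10 of the 49585 gene identifiers in each count table, of which 26916 had a count in any library. All 10 passed the low-count filter of the main edgeR tests below. An alternative filter of 10 counts in every library kept 8 of them in each fit that held 2-week libraries. They were read in 17 libraries of bone marrow endothelial cells from mice given tamoxifen at 8 weeks of age. In the knockout (KO) mice, Cdh5:CreERT2 drives recombination of floxed Eng in cells that express the endothelial cadherin Cdh5. Eng encodes Endoglin, a co-receptor of the TGF-beta family. The wild-type (WT) mice also received tamoxifen, and whether they carry Cre is not stated in the labels. Cells were taken 2 weeks after tamoxifen (4 WT and 4 KO libraries) or 4 weeks after it (5 WT and 4 KO libraries), from both sexes, and the letters f and m in library names stand for female and male. Long bones were crushed, and CD45- Ter119- CD31+ cells were sorted into lysis buffer for SmartSeq2, a full-length polyA RNA protocol. The sample protocols add Sca1+ to the gate and the design text of the series does not. All libraries came from crushed and sorted marrow, so none shows the level of these genes in undisturbed tissue.

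Immediate early genes are transcribed within minutes of a stimulus from promoters that are already open, without new protein synthesis. Kinase cascades reach them through serum response factor, which binds CArG boxes with its ETS partners, and through CREB and ATF factors, which bind cyclic AMP response elements (CRE). Their products are transcription factors of the AP-1 and EGR families and feedback regulators such as the phosphatase Dusp1 and the RNA-binding protein Zfp36, and most of their messages are short-lived because of AU-rich elements in the 3' UTR. In endothelium the same genes respond to shear stress, growth factors and cytokines.

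All of these genes but Jund were higher at 4 weeks than at 2 weeks, while KO and WT libraries of a time overlapped for every gene. Their summed CPM (counts scaled to a library total of 1000000) were 1135 to 2466 in the 8 libraries at 2 weeks and 9684 to 16211 in the 9 libraries at 4 weeks. In 9 of the 10 genes, in both genotypes, every library at 4 weeks was above every library at 2 weeks, and Jund was the exception. No gene of the 10 passed the test between KO and WT at either time, where passing means an adjusted p under 0.05. In sorted bulk RNA such as this, more cells with the transcript and more transcript per cell cannot be told apart.

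The series-wide facts that touch these values are few. Library totals ranged from 20477400 to 40882715 counts, and 3 counts amount to 0.0734 to 0.147 CPM. Libraries at 2 weeks held 10886 to 13583 genes with a count and 22.2 to 29.5% mitochondrial counts, and those at 4 weeks held 15996 to 21235 genes and 4.66 to 8.99%. The labels name no batch, so the time after tamoxifen and any difference in handling or library making between the 2 rounds cannot be told apart. Summed CPM of 10 endothelial markers was 4101 to 5519 at 2 weeks and 8113 to 10546 at 4 weeks. Eng itself was lower in every KO library than in every WT library of its time, by a log2 fold change of -1.96 (SE 0.25) at 2 weeks and -1.72 (SE 0.50) at 4 weeks, although by edgeR within each time no gene passed the adjusted threshold. The KO libraries at 4 weeks differed in Eng, with 873, 322, 1647 and 274 CPM in f2, m1, m2 and m3 against 2400 to 2735 CPM in WT, so that KO m2 kept the most. Without KO m2, 0 of the 10 genes passed at 4 weeks. KO m2 and m3 at 2 weeks held 4162 and 3150 summed CPM of 10 neutrophil markers, against 22.6 to 238 in the other 6 libraries at that time and 19.9 to 103 at 4 weeks. The same libraries had 458 and 283 CPM of monocyte and macrophage markers, against 11.5 to 61.2 in the other 6. Erythroid markers (8 genes) summed to 278 to 1251 CPM in KO and 61.4 to 233 CPM in WT at 2 weeks, with no overlap, and to 172 to 2912 CPM at 4 weeks. Of the 6 tested at 2 weeks, 0 passed between genotypes by edgeR, 3 had an unadjusted p under 0.05, and DESeq2 passed Hba-a1 and Hbb-bs. Their part in the levels below was not tested. Summed CPM of 9 stromal and osteolineage markers was 951 to 1557 at 2 weeks and 867 to 2960 at 4 weeks, and T and NK cell markers were at 5.25 CPM or less in all 17 libraries.

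The sequence just before the transcription start is printed for the 6 genes in which it holds a CRE core or a CArG box, the motifs of the inputs named above. RefSeq (GRCm38.p6) gave a start for 8 of the 10 genes, and Egr1 and Ier2 were not matched. The 250 bases before the start were searched on both strands for the CRE core TGACG, the full CRE TGACGTCA, the CArG box, the TATA box TATAAA, the AP-1 site TGANTCA, the EGR site GCGGGGGCG, the GC box GGGCGG and the ETS core CCGGAA. The full CRE contains the CRE core, and an EGR site can overlap a GC box. Capitals mark CRE cores, the CArG box and the TATA box, each sequence runs 5' to 3' on the gene's strand, and the last base is the one before the RefSeq start.
Fos promoter (chr12:85473640-85473889, plus strand): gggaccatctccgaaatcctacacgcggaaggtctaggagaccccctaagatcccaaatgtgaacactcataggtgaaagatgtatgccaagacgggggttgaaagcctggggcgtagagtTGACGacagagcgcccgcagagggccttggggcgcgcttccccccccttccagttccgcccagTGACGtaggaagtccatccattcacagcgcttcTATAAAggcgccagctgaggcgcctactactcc
Fosb promoter (chr7:19310046-19310295, minus strand): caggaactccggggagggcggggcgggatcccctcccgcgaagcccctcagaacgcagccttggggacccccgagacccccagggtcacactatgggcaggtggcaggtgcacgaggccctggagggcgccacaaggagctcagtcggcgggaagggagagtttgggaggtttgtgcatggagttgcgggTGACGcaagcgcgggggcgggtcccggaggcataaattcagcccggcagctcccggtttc
Junb promoter (chr8:84978749-84978998, minus strand): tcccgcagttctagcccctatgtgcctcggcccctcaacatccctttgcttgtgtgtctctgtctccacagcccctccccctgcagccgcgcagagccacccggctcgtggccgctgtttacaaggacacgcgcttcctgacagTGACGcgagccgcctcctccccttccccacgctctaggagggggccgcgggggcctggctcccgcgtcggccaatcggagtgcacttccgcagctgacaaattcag
Atf3 promoter (chr1:191183334-191183583, minus strand): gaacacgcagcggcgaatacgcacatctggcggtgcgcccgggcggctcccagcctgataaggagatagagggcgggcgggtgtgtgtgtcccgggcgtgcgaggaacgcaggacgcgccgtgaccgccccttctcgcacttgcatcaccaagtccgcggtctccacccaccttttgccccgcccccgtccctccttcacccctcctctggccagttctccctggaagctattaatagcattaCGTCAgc
Dusp1 promoter (chr17:26508473-26508722, minus strand): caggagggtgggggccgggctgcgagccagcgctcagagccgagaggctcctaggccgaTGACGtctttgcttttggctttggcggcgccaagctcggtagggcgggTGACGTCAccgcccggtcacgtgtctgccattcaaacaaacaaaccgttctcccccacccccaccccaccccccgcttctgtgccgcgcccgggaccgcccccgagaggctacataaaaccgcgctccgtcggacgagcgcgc
Zfp36 promoter (chr7:28379229-28379478, minus strand): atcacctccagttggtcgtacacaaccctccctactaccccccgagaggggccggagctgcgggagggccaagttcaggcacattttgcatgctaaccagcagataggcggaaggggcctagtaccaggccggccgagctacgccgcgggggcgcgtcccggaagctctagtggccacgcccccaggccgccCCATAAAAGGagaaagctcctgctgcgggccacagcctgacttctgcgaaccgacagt

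A CRE core stood in 5 of the 8 promoters (Fos, Fosb, Junb, Atf3 and Dusp1), where 17.8% of the 32851 RefSeq promoter windows of the same length held one. Fos had cores 129 and 66 bases before the start and a TATA box at 33 bases, Fosb had a core at 60 bases, and Junb had one at 106 bases. Dusp1 alone held the full CRE, 143 bases before its start, a sequence found in 1.55% of windows. Zfp36 alone held a CArG box, 58 bases before the start, found in 1.47% of windows, and it was the only one with an ETS core, 92 bases before the start. A CArG box more than 250 bases before a start, or one in Egr1 or Ier2, would not have been seen. The AP-1 site was in none of the 8 and in 6.75% of windows, which says only that these letters are absent from these windows. The EGR site was in 2 of 8, Fosb and Zfp36, against 2.57%. The GC box was in 6 of 8, all but Junb and Jund, against 32.7%. Neither Jun nor Jund held a motif of the kinds set in capitals, and the RefSeq start of Jund lies 1210 bases from its GENCODE start. For Atf3, Dusp1 and Zfp36 the RefSeq start also differs from the GENCODE gene start, by 34706, 53656 and 1025 bases, since GENCODE lists longer transcripts there.

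The AU-rich elements that mark short-lived messages were looked for as the heptamer TATTTAT in the 3' UTR of the GENCODE transcript with the longest coding sequence. Of the 10 genes, 7 held at least 1, or 70.0%, where 25.5% of 21037 protein-coding genes did, and the median 3' UTR length was 794.5 bases for the 10 and 798 for all. Dusp1 and Zfp36 held 3 each, Fos 2, and Fosb, Jun, Jund and Atf3 1 each, while Junb, Egr1 and Ier2 held none. Among genes with a 3' UTR within 20% of the length of that of Fos, 19.7% held the heptamer. Over the 10 genes this share ran from 12.1% for the length of Junb to 43.1% for that of Fosb, and it was 30.8% for Jun and 30.1% for Atf3. A window of 30 bases is shown for each of the 3 genes with more than 1 copy, with the heptamers in capitals.
Fos 3' UTR, bases 653 to 682: attTATTTATtaagatggattctcagatat
Dusp1 3' UTR, bases 101 to 130: cctTATTTATttaacacccccctcaccccc
Zfp36 3' UTR, bases 572 to 601: cttTATTTATgacgacttTATTTATtgtat

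Fos (chr12:85473890-85477273, GENCODE on GRCm38, 4 exons) encodes the AP-1 subunit that pairs with Jun proteins and is the usual marker of a recent stimulus. At 2 weeks its CPM was 52.1, 189, 236 and 331 in WT f1, f4, m2 and m3 and 329, 71.4, 301 and 86.3 in KO f1, f4, m2 and m3. At 4 weeks it was 3035, 2411, 2464, 2743 and 2926 in WT f, f3, m1, m2 and m3 and 2635, 2680, 3115 and 3462 in KO f2, m1, m2 and m3. The genotypes overlapped at both times, and the lowest library at 4 weeks was 7.29 times the highest at 2 weeks in WT and 8.01 times in KO. Fos was also the gene whose spread fell most in relation to other genes: libraries differed 6.36-fold in WT and 4.60-fold in KO at 2 weeks, and 1.26-fold and 1.31-fold at 4 weeks. Its SD of log2 CPM in WT exceeded that of 84.5% of 4538 well expressed genes at 2 weeks and of 6.79% of 6933 at 4 weeks.

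Fosb (chr7:19302696-19310051, 4 exons), the close relative of Fos with the same partners, was nearly absent at 2 weeks in part of the libraries. It had 0, 2.4, 5.7 and 18.5 CPM in WT f1, f4, m2 and m3 and 0.075, 8.2, 14.7 and 2.1 CPM in KO, in the same library order. The value of 0 in WT f1 allows up to 0.079 CPM (3 counts), and the value in KO f1 rests on 2 counts. At 4 weeks Fosb had 401, 94.0, 349, 301 and 164 CPM in WT f, f3, m1, m2 and m3 and 88.3, 377, 463 and 126 CPM in KO f2, m1, m2 and m3. All libraries at 4 weeks lay above all at 2 weeks, the genotypes overlapped, and Fosb stayed one of the most variable of the 10 genes at both times.

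The Jun proteins bind DNA alone or with Fos proteins. Jun (chr4:95049034-95052222, 1 exon) had 149, 323, 262 and 206 CPM in WT f1, f4, m2 and m3 and 184, 160, 206 and 137 CPM in KO f1, f4, m2 and m3 at 2 weeks. It had 1541, 913, 1406, 1076 and 1214 CPM in WT f, f3, m1, m2 and m3 and 991, 1382, 1659 and 1055 CPM in KO f2, m1, m2 and m3 at 4 weeks. Every library at 4 weeks was at least 2.83 times the highest at 2 weeks in WT, and 4.82 times in KO, with no separation of the genotypes. The exon of Jun is overlapped on the other strand by the antisense gene Junos. The strand setting of the counting is not given in the sources used here, so how reads of the shared sequence were assigned is not known.

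Junb (chr8:84974484-84978718) is a Jun family member that competes with Jun at AP-1 sites. Its CPM was 180, 319, 138 and 294 in WT and 121, 89.8, 147 and 198 in KO at 2 weeks, in the order f1, f4, m2 and m3. Its CPM at 4 weeks was 3103, 1929, 2712, 2381 and 2562 in WT f, f3, m1, m2 and m3 and 1955, 3228, 3148 and 2647 in KO f2, m1, m2 and m3. At 2 weeks 2 of the 4 KO libraries were below every WT library and the other 2 were within the WT range, and at 4 weeks the highest and the second highest level were both in KO. Part of its annotated exons is shared with Prdx2 on the other strand.

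Jund (chr8:70698949-70700616, 1 exon), the Jun family member known for steady expression in resting cells, was the gene whose time points overlapped. It had 14.6, 8.3, 21.2 and 28.5 CPM in WT and 25.2, 6.8, 28.4 and 34.3 CPM in KO at 2 weeks, in the order f1, f4, m2 and m3. At 4 weeks it had 39.4, 21.1, 37.5, 43.0 and 39.1 CPM in WT f, f3, m1, m2 and m3 and 27.2, 47.2, 50.5 and 16.0 CPM in KO f2, m1, m2 and m3. The 2 times overlapped in both genotypes: WT f3 at 4 weeks was below the highest WT library at 2 weeks, and KO m3 at 4 weeks was below 3 of the 4 KO libraries at 2 weeks. Its level was also the lowest per length at 4 weeks, and the antisense gene Gm11175 overlaps it.

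Atf3 (chr1:191170296-191218039, 4 exons) encodes a stress-induced factor that binds CRE and AP-1 sites. At 2 weeks it had 0, 42.3, 74.6 and 22.2 CPM in WT f1, f4, m2 and m3 and 8.3, 20.5, 7.4 and 30.3 CPM in KO f1, f4, m2 and m3. At 4 weeks it had 652, 329, 542, 328 and 568 CPM in WT f, f3, m1, m2 and m3 and 422, 669, 610 and 478 CPM in KO f2, m1, m2 and m3. The lowest library at 4 weeks was 4.39 times the highest at 2 weeks in WT and 14.0 times in KO. WT f1 at 2 weeks was at 0 for Atf3 and for Fosb and had the lowest Fos of all libraries, yet its Ier2 level was the second highest of the WT libraries at that time, so a low value was not shared by all 10 genes of a library.

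Egr1 (chr18:34859823-34864984, 2 exons) encodes the zinc finger factor of the EGR family. Its CPM at 2 weeks was 140, 499, 164 and 182 in WT and 146, 169, 212 and 139 in KO, in the order f1, f4, m2 and m3. Its CPM at 4 weeks was 2535, 1007, 2081, 1741 and 1233 in WT f, f3, m1, m2 and m3 and 948, 2275, 2233 and 1110 in KO f2, m1, m2 and m3. WT f4 stood apart at 2 weeks with the highest level, and the genotypes overlapped at both times. The 4-week libraries fell into a high set of 5 and a low set of 4 for this gene, with WT and KO in each.

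Ier2 (chr8:84661331-84662852, 1 exon) encodes a small nuclear protein of the immediate early response. It had 365, 298, 385 and 163 CPM in WT and 503, 166, 183 and 198 CPM in KO at 2 weeks, in the order f1, f4, m2 and m3. It had 1267, 893, 1088, 992 and 985 CPM in WT f, f3, m1, m2 and m3 and 843, 1150, 917 and 758 CPM in KO f2, m1, m2 and m3 at 4 weeks. KO f1 was far above the other KO libraries at 2 weeks, and the gap between the times was narrow in KO, where the lowest library at 4 weeks was 1.51 times the highest at 2 weeks.

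Dusp1 (chr17:26505590-26562128) encodes the phosphatase that switches off MAP kinases and so limits the response. Its CPM was 322, 545, 564 and 592 in WT f1, f4, m2 and m3 and 773, 260, 319 and 499 in KO f1, f4, m2 and m3 at 2 weeks. Its CPM was 1944, 1298, 1929, 1477 and 1802 in WT f, f3, m1, m2 and m3 and 1535, 1598, 1611 and 1310 in KO f2, m1, m2 and m3 at 4 weeks. The times did not overlap in either genotype, and the 4 KO libraries at 4 weeks differed by no more than 1.23-fold. An annotated exon overlaps Ergic1 on the other strand.

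Zfp36 (chr7:28376784-28380253, 2 exons) encodes tristetraprolin, which binds AU-rich elements and speeds the decay of messages that hold them. It had 86.3, 240, 353 and 161 CPM in WT and 121, 183, 191 and 74.9 CPM in KO at 2 weeks, in the order f1, f4, m2 and m3. It had 1694, 789, 1468, 1106 and 1180 CPM in WT f, f3, m1, m2 and m3 and 717, 1690, 1631 and 905 CPM in KO f2, m1, m2 and m3 at 4 weeks. The times did not overlap, the genotypes did, and the antisense gene Gm44710 shares exon sequence with it.

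**Figure D1:**
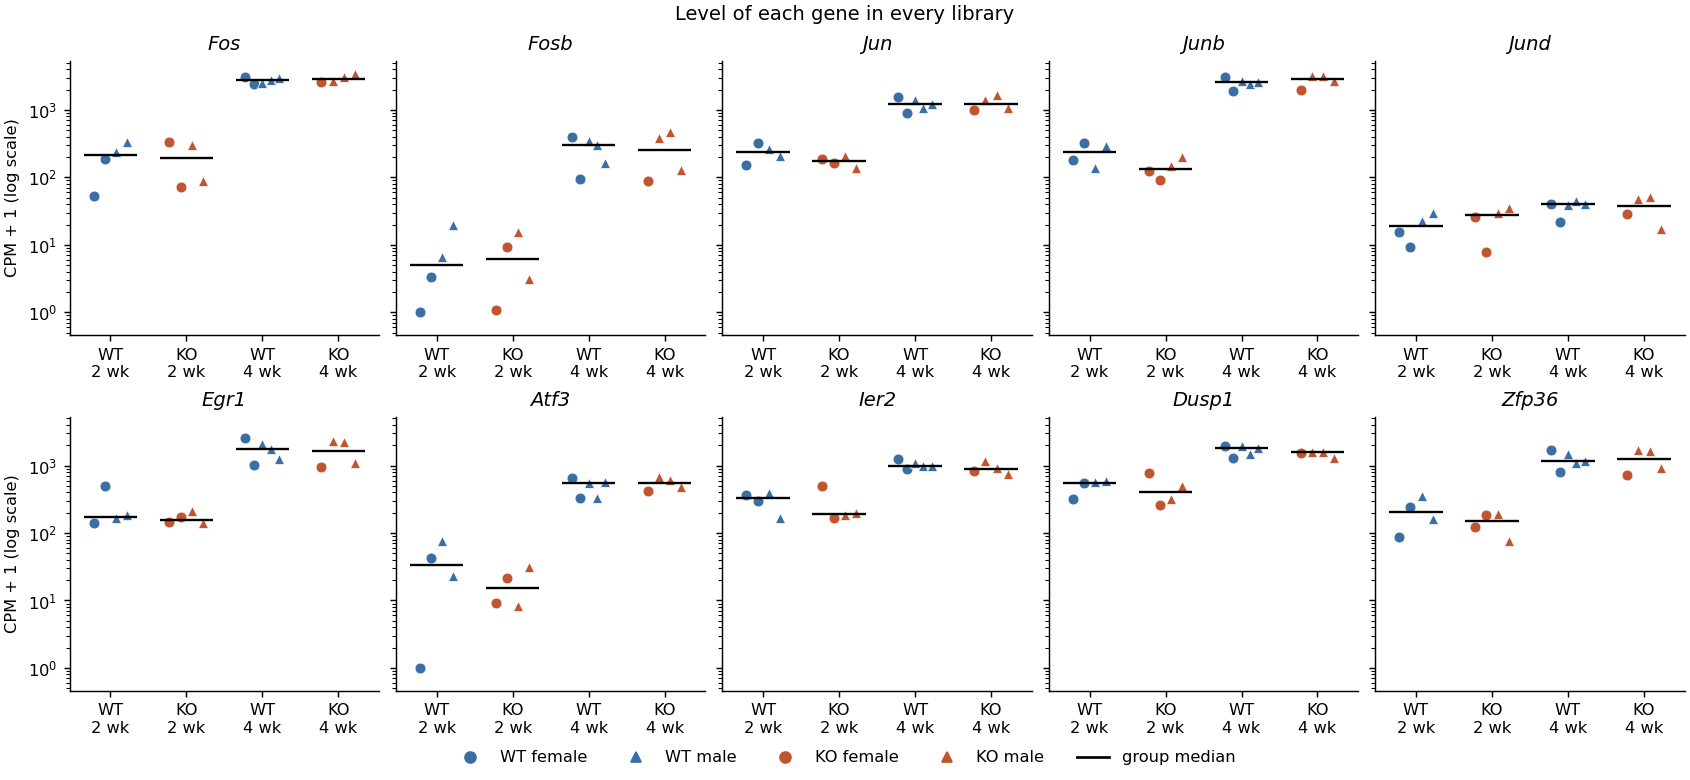
Level of the 10 immediate early genes in each of the 17 libraries, as CPM + 1 on a log axis, by genotype and weeks after tamoxifen. Circles are females, triangles males and bars group medians; all panels but that of Jund show the 4-week libraries above the 2-week libraries, with WT and KO side by side within each time.

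Levels of different genes can be compared only per length, so they were also expressed as RPKM (CPM per kilobase of merged exon). In WT at 2 weeks Ier2 led with 199 ± 65.8 RPKM (SD, n = 4), followed by Dusp1 with 153 ± 37.5 and Junb with 101 ± 38.0. Next came Fos with 85.9 ± 49.3 RPKM, Jun with 73.7 ± 23.4, Zfp36 with 60.6 ± 32.9 and Egr1 with 54.9 ± 37.8. Atf3 with 16.1 ± 14.7, Jund with 10.9 ± 5.2 and Fosb with 1.1 ± 1.3 RPKM were the lowest. The ranges of neighbours in this order overlapped for every pair but Jund and Fosb. At 4 weeks in WT the order was changed: Fos with 1155 ± 117 RPKM (SD, n = 5) and Junb with 1103 ± 188 led, then Ier2 with 687 ± 93.2 and Dusp1 with 510 ± 87.1. Jun with 386 ± 78.8, Egr1 with 383 ± 138 and Zfp36 with 359 ± 100 RPKM overlapped in range. Atf3 had 225 ± 68.5 RPKM, Fosb 42.0 ± 20.7 and Jund 21.6 ± 5.1, and neighbours without overlap were Junb and Ier2, and Atf3 and Fosb. The KO libraries at 4 weeks gave the same leading pair, with Junb at 1193 ± 254 and Fos at 1264 ± 166 RPKM (SD, n = 4).

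Whether deletion of Eng went with another level of these genes was asked at each time with edgeR's quasi-likelihood test and Benjamini-Hochberg adjustment over all genes of the fit. At 2 weeks 0 of 10 passed, where 0% of 10477 genes passed, and 0 of 10 had WT and KO libraries that did not overlap, where 3.36% of all genes had none. At 4 weeks 0 of 10 passed as well, where 0% of 15209 genes passed, and 0 of 10 separated the genotypes, where 1.19% of genes did. None of the 10 reached an unadjusted p of 0.05 in these fits, against 276 of all genes at 2 weeks and 422 at 4 weeks. DESeq2 and limma voom also passed 0 of the 10, although Junb at 2 weeks had an unadjusted p of 0.0285 by DESeq2 and 0.0163 in an edgeR fit of all 17 libraries. The median log2 fold change of the 10 in KO was -0.35 at 2 weeks, with 3 of 10 above 0, against -0.06 for all genes with 46.9% above 0. Leaving out 1 library gave -0.52 (without KO f1, 1 of 10 above 0) to 0.011 (without WT f4, 5 of 10 above 0), with -0.15 without WT m2, and leaving out KO m2 and m3 gave -0.08. At 4 weeks the median was -0.09, with 4 of 10 above 0, against 0.01 for all genes with 51.3% above 0. Its sign turned without KO f2 (0.17, 7 of 10 above 0), without WT f (0.11, 8 of 10) and without KO m3 (0.04, 8 of 10), and leaving out 1 other library gave values down to -0.19 (without KO m1).

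What the test could not see differed between the times. At 2 weeks the lowest unadjusted p was that of Junb, with a log2 fold change of -0.79 (SE 0.38, unadjusted p = 0.076, adjusted p = 1 by edgeR), or 0.58-fold with a 95% interval from 0.31 to 1.08. Jun followed with -0.45 (SE 0.26), Zfp36 with -0.52 (SE 0.47) and Egr1 with -0.50 (SE 0.43). For Fos, with 0.07 (SE 0.68), the interval ran from 0.34-fold to 3.22-fold, and for Fosb, with 0.63 (SE 2.23), from 0.040-fold to 60.0-fold, and the intervals of Atf3, with -0.90 (SE 1.77), from 0.029-fold to 9.73-fold, and Jund, with 0.40 (SE 0.84), from 0.34-fold to 5.15-fold, were wide too. For these 4 genes the intervals held large differences in either direction. Eng itself also did not pass at 2 weeks (-1.96, SE 0.25, adjusted p = 0.612 by edgeR). A count of 0 passing therefore says little about any of the 10 genes at that time. The interval was narrower for Jun, from 0.48-fold to 1.11-fold, for Ier2, from 0.45-fold to 1.58-fold, and for Dusp1, from 0.50-fold to 1.71-fold.

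At 4 weeks the intervals were much narrower. Ier2 had -0.17 (SE 0.14), with an interval from 0.71-fold to 1.11-fold, Fos 0.14 (SE 0.12), from 0.91-fold to 1.33-fold, and Dusp1 -0.15 (SE 0.14), from 0.73-fold to 1.12-fold. Junb had 0.08 (SE 0.16), from 0.82-fold to 1.36-fold, and Jun 0.03 (SE 0.18), from 0.76-fold to 1.36-fold. For these 5 genes the intervals together reached from 0.71-fold to 1.36-fold. Fosb with -0.20 (SE 0.57) and an interval from 0.36-fold to 2.12-fold was the least certain, and Egr1, Atf3, Zfp36 and Jund lay between.

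In the 2 KO libraries with neutrophil transcripts at 2 weeks, m2 and m3, the summed CPM of the 10 was 1608 and 1398, between the 1135 of KO f4 and the 2210 of KO f1. For Junb and Jund, m2 and m3 were the highest KO libraries, and the KO libraries below every WT library for Junb were the other 2, f1 and f4. Without m2 and m3, 0 of 10 passed again, the estimate of Junb went from -0.79 to -1.27 (SE 0.53, adjusted p = 0.839 by edgeR), and Dusp1 turned from -0.12 to 0.21. The part of other cells in the levels at 2 weeks was not tested.

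**Figure D2:**
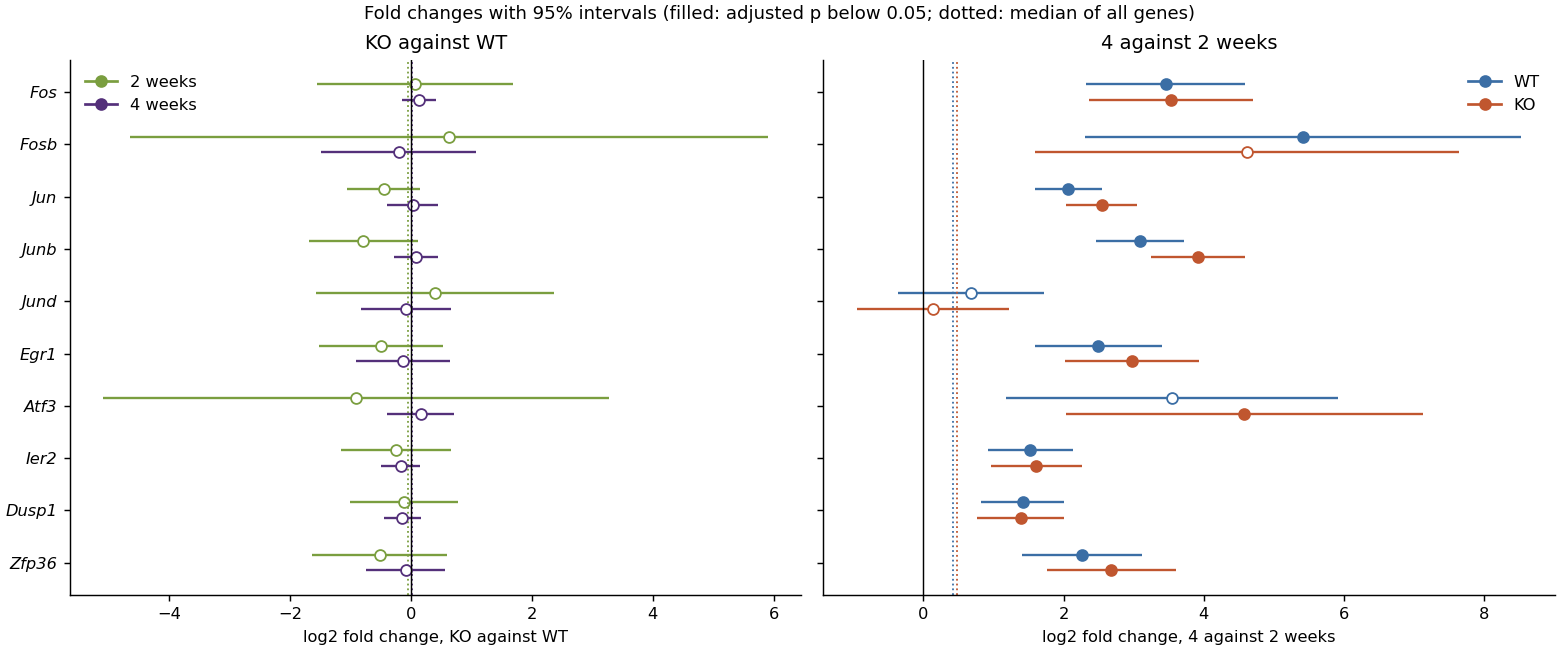
Log2 fold change of each gene between KO and WT (left) and between 4 and 2 weeks (right), as edgeR estimates with 95% intervals; filled points passed an adjusted p of 0.05 and dotted lines are the medians of all genes. The KO against WT estimates lie around 0 with wide intervals at 2 weeks, and all genes but Jund are shifted upwards at 4 weeks.

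Between the times, 8 of the 10 rose in WT and 8 of the 10 rose in KO, with edgeR on all 17 libraries and adjustment over 15703 genes. In WT, 6.92% of all genes passed and 5.03% passed as higher at 4 weeks. In KO, 6.33% passed and 4.84% as higher. The 2 times did not overlap in 9 of 10 genes, all higher at 4 weeks, in either genotype, where 18.1% of all genes in WT and 23.3% in KO showed no overlap, and 16.1% and 21.4% as higher. The median log2 fold change of the 10 was 2.38 in WT and 2.83 in KO, against 0.42 and 0.49 for all genes. The median of all genes depended on the method: with limma voom it was 1.38 and 1.66, beside 2.36 and 2.82 for the 10, and among genes with 10 counts in every library it was 0.0025 and -0.024, beside 2.29 and 2.70 for the 8 of the 10 tested there. The WT and KO comparisons share no library, although 1 fit holds both.

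Junb showed the smallest p of the 10 in both genotypes. It rose by 3.09 log2 units in WT (SE 0.29, adjusted p = 3.18e-05 by edgeR), or 8.51-fold with a 95% interval from 5.50 to 13.2, and by 3.92 in KO (SE 0.31, adjusted p = 2.13e-05), or 15.1-fold with an interval from 9.48 to 24.1. In KO it ranked 2 among 15703 genes by p, and in WT 24. Fos rose by 3.46 (SE 0.53, adjusted p = 0.00177 by edgeR) in WT and 3.53 (SE 0.55, adjusted p = 0.00215) in KO, or 11.0-fold and 11.6-fold. Jun rose by 2.07 (SE 0.22, adjusted p = 9.54e-05 by edgeR) in WT and 2.54 (SE 0.24, adjusted p = 3.98e-05) in KO.

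Egr1 rose by 2.50 (SE 0.42, adjusted p = 0.00343 by edgeR) in WT and 2.98 (SE 0.45, adjusted p = 0.00173) in KO, and Zfp36 by 2.27 (SE 0.40, adjusted p = 0.00423) and 2.68 (SE 0.43, adjusted p = 0.00265). Without WT f4 at 2 weeks the WT estimate of Egr1 was 3.11. The feedback phosphatase Dusp1 and the nuclear protein Ier2 rose least among the called genes. Dusp1 rose by 1.42 (SE 0.27, adjusted p = 0.00753 by edgeR) in WT and 1.39 (SE 0.29, adjusted p = 0.0119) in KO, near 2.67-fold and 2.62-fold. Ier2 rose by 1.52 (SE 0.28, adjusted p = 0.00600 by edgeR) and 1.61 (SE 0.30, adjusted p = 0.00664). The endothelial gene Pecam1 rose by 1.17 (SE 0.16) in WT and 1.18 (SE 0.17) in KO in the same fit, and the difference between it and Dusp1 or Ier2 was not tested. In KO the calls of Dusp1 and Ier2 were lost without the 2-week libraries m2 and m3 (adjusted p = 0.0845 and 0.0829 by edgeR), at estimates of 1.21 and 1.31, and that of Dusp1 also without KO f2 at 4 weeks (adjusted p = 0.0525).

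The 2 genes with the largest estimates were also the least certain. Fosb stood 5.42 log2 units higher at 4 weeks (SE 1.45, adjusted p = 0.0409 by edgeR) in WT and 4.62 (SE 1.41, adjusted p = 0.0653) in KO. Atf3 had 3.55 (SE 1.10, adjusted p = 0.0684 by edgeR) in WT and 4.58 (SE 1.19, adjusted p = 0.0370) in KO. The WT call of Fosb was lost in 12 of 17 fits that left out 1 library: WT f1, f4 or m2 at 2 weeks, or any 1 of the 9 libraries at 4 weeks, with log2 fold changes from 4.79 to 5.72 and adjusted p from 0.0514 to 0.0978 by edgeR. Its WT estimate was 4.79 without WT f at 4 weeks and 6.42 without WT m3 at 2 weeks (adjusted p = 0.0400), and in KO its range over the 17 fits was 4.20 to 5.49. The KO call of Atf3 was lost in 11 of 17: any 1 KO library at either time, or WT f, f3 or m3 at 4 weeks, with estimates from 4.27 to 5.05 and adjusted p from 0.0519 to 0.0853. It was also lost without the 2-week KO libraries m2 and m3 together (4.59, adjusted p = 0.127 by edgeR). Without WT f1 at 2 weeks, the library at 0 for both, Atf3 passed in WT (3.11, adjusted p = 0.00638 by edgeR) and Fosb in KO (4.74, adjusted p = 0.0243).

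With limma voom and sample quality weights, 5 of the 10 passed in each genotype, all higher at 4 weeks, where 6.83% of all genes in WT and 6.34% in KO passed as higher. These were Fos, Jun, Junb, Ier2 and Dusp1. Egr1 did not pass there (adjusted p = 0.183 in WT and 0.224 in KO), nor did Zfp36 (adjusted p = 0.101 and 0.116), at estimates of 2.46 and 2.82 for Egr1 and 2.26 and 2.83 for Zfp36. DESeq2 passed 9 of the 10 in each genotype, all but Jund, where it passed 15.1% of all genes in WT and 15.0% in KO as higher.

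Jund did not pass, with 0.68 (SE 0.49, adjusted p = 0.515 by edgeR) in WT and 0.14 (SE 0.51, adjusted p = 0.952) in KO. Its 95% interval ran from 0.78-fold to 3.30-fold in WT and from 0.52-fold to 2.34-fold in KO. The all-gene median of 0.42 in WT and 0.49 in KO lay inside these intervals.

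Other values moved with the time as well. The endothelial markers had a median log2 fold change of 1.02 in WT, with 10 of 10 above 0 and 3 of 10 passing (Cdh5, Pecam1 and Emcn), and 0.82 in KO with 3 of 10 passing. Erythroid markers had a median of 1.82 in WT, with 7 of 8 above 0 and 1 passing (Slc4a1), and 1.44 in KO, with 8 of 8 above 0. In KO 0 of the 8 passed by edgeR, 1 had an unadjusted p under 0.05, and DESeq2 and limma voom passed Slc4a1. Neutrophil markers had a median of -4.72 in KO, with 0 of 9 above 0 and S100a8 passing as lower by edgeR (5 by DESeq2 and 4 by limma voom), and 0.01 in WT, where 0 of 9 passed by edgeR, DESeq2 or limma voom and 0 had an unadjusted p under 0.05 by edgeR. Mitochondrial counts fell from 22.2 to 29.5% of the library to 4.66 to 8.99%, and with scaling that left out mitochondrial genes the same number of the 10 passed in each genotype, 8 and 8. The part of library quality and of other cells in the rise was not tested.

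The test of whether the genotype difference itself changed between the times passed 0 of the 10, where 0.0764% of 15703 genes passed. DESeq2 and limma voom also passed 0 of the 10. Junb alone had an unadjusted p under 0.05, with a difference of 0.83 (SE 0.38, unadjusted p = 0.048, adjusted p = 0.50 by edgeR), as its KO estimate went from below WT at 2 weeks to slightly above it at 4 weeks.

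The spread among libraries was asked of each gene as the biological coefficient of variation (BCV) of the edgeR fit of each time. The BCV of Fos was 66.5% at 2 weeks and 16.6% at 4 weeks, that of Junb 43.0% and 19.3%, of Dusp1 41.1% and 17.6%, of Ier2 42.6% and 18.1%, and of Jun 34.3% and 21.5%. Fosb and Atf3 were the most variable at 2 weeks, with 180% and 156%, and Fosb stayed so at 4 weeks with 53.3%. Egr1 was at 46.9% and 35.1% and Zfp36 at 50.8% and 30.0%. All 10 became less variable. The median BCV over the genes of each fit was also lower at 4 weeks, with 119% over 10477 genes at 2 weeks and 48.8% over 15209 at 4 weeks. These are not the same sets of genes.

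The libraries at 4 weeks also fell into sets by another gene. Kdr, the main endothelial receptor for VEGF, was at 1646 to 2179 CPM in 5 libraries (WT f, m1 and m2, KO m1 and m2) and at 416 to 626 CPM in the other 4 (WT f3 and m3, KO f2 and m3). Egr1 was at 1741 to 2535 CPM in the first 5 and at 948 to 1233 CPM in the other 4, and Fosb at 301 to 463 CPM and 88.3 to 164 CPM, with no overlap. Zfp36 overlapped narrowly, with 1106 to 1694 CPM and 717 to 1180 CPM. Fos did not follow Kdr, with 2464 to 3115 CPM and 2411 to 3462 CPM, and neither did Atf3, with 328 to 669 CPM and 329 to 568 CPM. Jun, Junb, Jund, Ier2 and Dusp1 overlapped as well, so that 2 of the 10 separated the sets, both higher in the first 5. Over all 15209 genes 11.1% separated them, and 7.40% as higher in the first 5. Cxcl12, a chemokine on the stromal and osteolineage list, also differed without overlap, at 2006 to 2803 CPM in the first 5 and 818 to 1131 CPM in the other 4. The other 8 markers of that list overlapped in sum, at 87.0 to 216 CPM and 49.1 to 96.0 CPM, and the part of such cells in the levels was not tested. These sets were seen in the data and carry no label, so no test was run between them. With a term for them, added after the values were seen, the genotype test at 4 weeks again passed 0 of the 10. As both sets are under 6 libraries, correlations among the 10 genes were not tested at 4 weeks.

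**Figure D3:**
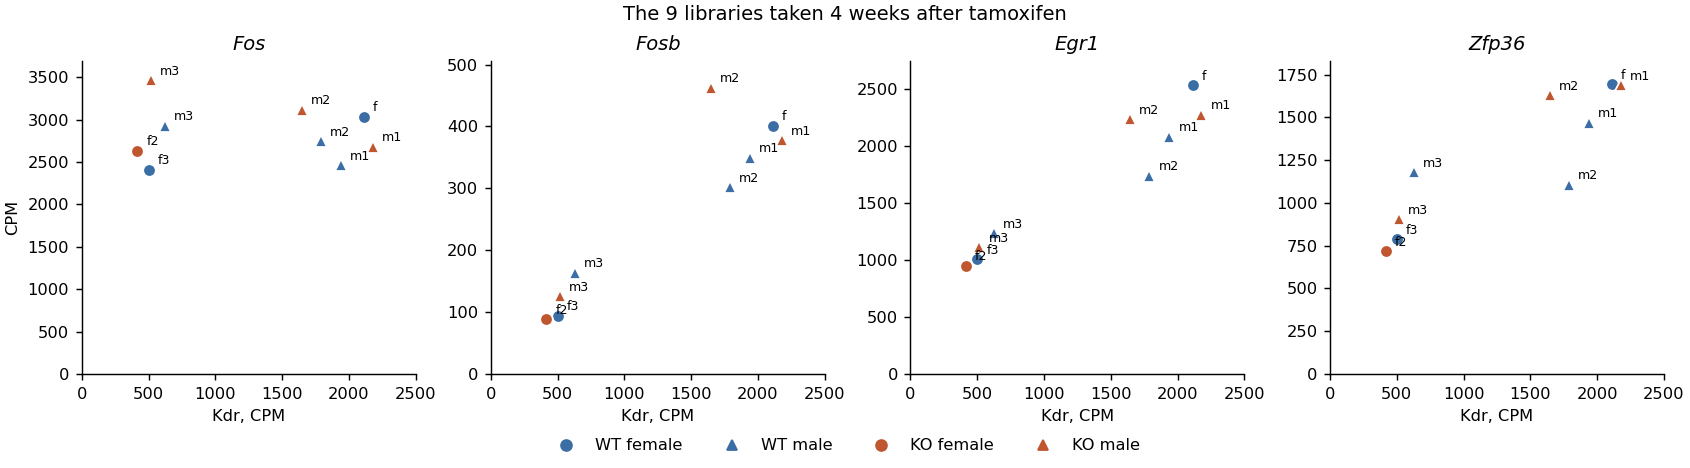
CPM of Fos, Fosb, Egr1 and Zfp36 against CPM of Kdr in the 9 libraries at 4 weeks, on linear axes from 0, coloured by genotype and named by library. Egr1 and Fosb are higher in the 5 libraries with 1646 to 2179 CPM of Kdr than in the other 4, and Fos is not.

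Whether the 10 rose and fell together from library to library was asked at 2 weeks over 8 libraries, WT and KO pooled. Of 45 pairs, 35 had a positive Pearson r, the median r was 0.28 and the range was -0.76 to 0.83. The same share and median were not computed for pairs of other genes, so these values have no background. No pair passed after adjustment over the 45 (smallest adjusted p = 0.274, exact permutation test, two-sided), and 4 had an unadjusted p under 0.05. The strongest was Jun with Zfp36, with r = 0.83 and rho = 0.86 (exact permutation p = 0.0114 and 0.0107, adjusted p = 0.274 and 0.482), and r = 0.84 without the 2 libraries farthest from the median of Jun. Jun with Egr1 had r = 0.79 and rho = 0.79 (exact permutation p = 0.0122 and 0.0279, adjusted p = 0.274 and 0.516), which dropped to r = 0.43 without the 2 farthest and so rests on them. Fosb with Ier2 had the lowest, r = -0.76 and rho = -0.76 (exact permutation p = 0.0268 and 0.0368, adjusted p = 0.402 and 0.516), and r = -0.49 without the 2 farthest.

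The genes most like the 10 were ranked among 4073 candidates by the smaller of their correlations, at 2 weeks (n = 8) and at 4 weeks (n = 9), with the mean log2 CPM of those of the 10 that had enough counts (8 genes at 2 weeks and 10 at 4 weeks). The 8 nearest were 4931406P16Rik, Tbx3, Timp3, Caprin1, Junos, Mier1, Afdn and Wbp2, with a smaller r from 0.83 for Wbp2 to 0.88 for 4931406P16Rik. Timp3, an inhibitor of matrix metalloproteinases, was at 203 to 673 CPM at 2 weeks and 659 to 1532 CPM at 4 weeks. Tbx3, a T-box transcription factor, was at 0.68 to 82.4 CPM and 37.7 to 174 CPM. Junos shares its locus with Jun, one of the genes it was ranked against. The correlation at 4 weeks runs across both sets of libraries by Kdr and was not split by set. No p is given, as these were the highest of 4073, and all of the libraries' shared depth and composition enter both sides.

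Genes of the same pathways were read from lists of related genes, also chosen with earlier results of these data known. Some of them passed the low-count filter only with the 4-week libraries added, so counts of rising genes are partly set by the filter. This holds for all genes too, with 10477 tested in the 2-week libraries alone and 15703 over time. Over all genes, 63.5% had a log2 fold change above 0 between 4 and 2 weeks in WT and 64.4% in KO, 5.03% and 4.84% passed as higher, and 1.88% and 1.49% as lower. Of the other immediate early and delayed early genes, all 28 had a log2 fold change above 0 between 4 and 2 weeks in WT, 5 passed, and the median was 2.16. In KO 27 of 28 were above 0, 9 passed, and the median was 2.10. In the 2-week libraries alone 23 of the 28 passed the filter, so the direction of the others was partly set by it. DESeq2 passed 14 in WT and 15 in KO, and limma voom 9 in each. Arc, known as an activity-induced gene of neurons, had 0 counts in all 8 libraries at 2 weeks and 39.3 to 135 CPM at 4 weeks. Ccn1, a secreted matrix protein, rose by 4.36 (SE 0.51) in WT and 3.85 (SE 0.51) in KO, and Ier3, an early response gene tied to cell survival, by 3.98 (SE 0.47) and 3.77 (SE 0.48).

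Of 7 tested EGR and NR4A factors, 4 rose in WT and 2 in KO, against 4 and 3 by DESeq2 and 4 and 1 by limma voom. In the 2-week libraries alone 3 of the list passed the filter. The others were tested only with the 4-week libraries added, so their part of these counts is no independent support. Egr2, the nearest relative of Egr1, had 0 or 1 count in each library at 2 weeks and 28.5 to 97.5 CPM at 4 weeks. Nr4a1, an orphan nuclear receptor, rose by 1.93 (SE 0.49, adjusted p = 0.0324 by edgeR) in WT and 3.36 (SE 0.55, adjusted p = 0.00316) in KO. Nr4a2 rose in WT, from at most 1 count per library to 28.7 to 82.1 CPM, and in KO was at 0 to 16.6 CPM at 2 weeks and 36.3 to 70.2 CPM at 4 weeks. In KO the times did not overlap either, but the test did not pass (2.27, SE 1.26, adjusted p = 0.333 by edgeR).

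Among 14 tested AP-1 and related bZIP genes outside the 10, 2 rose in WT and 1 in KO, the latter near the 4.84% of all genes. In the 2-week libraries alone 10 of these 14 passed the filter. Atf4, the factor of the integrated stress response, rose by 1.46 (SE 0.22) in WT and 1.36 (SE 0.24) in KO, and Maf, which passed in WT, had 0 counts there at 2 weeks and 0.35 to 4.5 CPM at 4 weeks. Maf was tested only because of its 4-week libraries. Of the other feedback phosphatases and kinase inhibitors, 2 of 13 rose in WT and 1 of 13 in KO, again near the share of all genes in KO. In the 2-week libraries alone 8 of these 13 passed the filter. DESeq2, which calls more genes in general, passed 2 AP-1 and related genes in WT and 3 in KO, and 5 and 3 of the feedback list. Dusp5, a nuclear phosphatase of ERK, had 0 counts in all 8 libraries at 2 weeks and 2.6 to 19.6 CPM at 4 weeks. Of 10 relatives of Zfp36 and genes of RNA decay, 0 passed in either genotype by edgeR, with 1 in each at an unadjusted p under 0.05, while DESeq2 and limma voom each passed Zc3h12a in KO, and the median was 0.35 in WT and 0.30 in KO, below that of all genes.

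The upstream factors and kinases gave no common direction. Of 22 genes for SRF, its partners, CREB and the MAP kinases, 1 rose and 2 fell in WT, and 1 rose and 1 fell in KO, with medians of 0.06 and 0.18 against 0.42 and 0.49 for all genes. DESeq2 passed 2 as higher and 3 as lower in WT, and 1 and 2 in KO. Elk3, an ETS partner of SRF, rose by 0.89 (SE 0.21) in WT and 1.04 (SE 0.22) in KO. Mapk3, which encodes the kinase ERK1, fell by 1.15 (SE 0.18) in WT and by 1.16 (SE 0.20) in KO. Map2k2, a kinase that activates ERK, fell by 0.85 (SE 0.22) in WT. Heat shock genes, another group known to respond to handling, rose in 7 of 14 in WT and 7 of 14 in KO, with Hspa5, the chaperone of the endoplasmic reticulum, at 2.22 (SE 0.32) and 2.36 (SE 0.33), and Hsp90aa1, the inducible cytosolic chaperone, at 1.77 (SE 0.23) and 1.61 (SE 0.24). Between the genotypes, 0 of the genes on these 7 lists passed by edgeR, of 85 tested at 2 weeks and 108 at 4 weeks, with 2 at each time at an unadjusted p under 0.05. DESeq2 passed 1 at each time, Sgk1 and Hsph1, and limma voom passed 0. The lowest unadjusted p by edgeR were those of the same genes, Sgk1, a kinase induced by serum and glucocorticoids, at 2 weeks (-0.82, SE 0.21, unadjusted p = 0.00622 by edgeR) and of the chaperone gene Hsph1 at 4 weeks (-1.30, SE 0.28, unadjusted p = 0.00128).

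**Figure D4:**
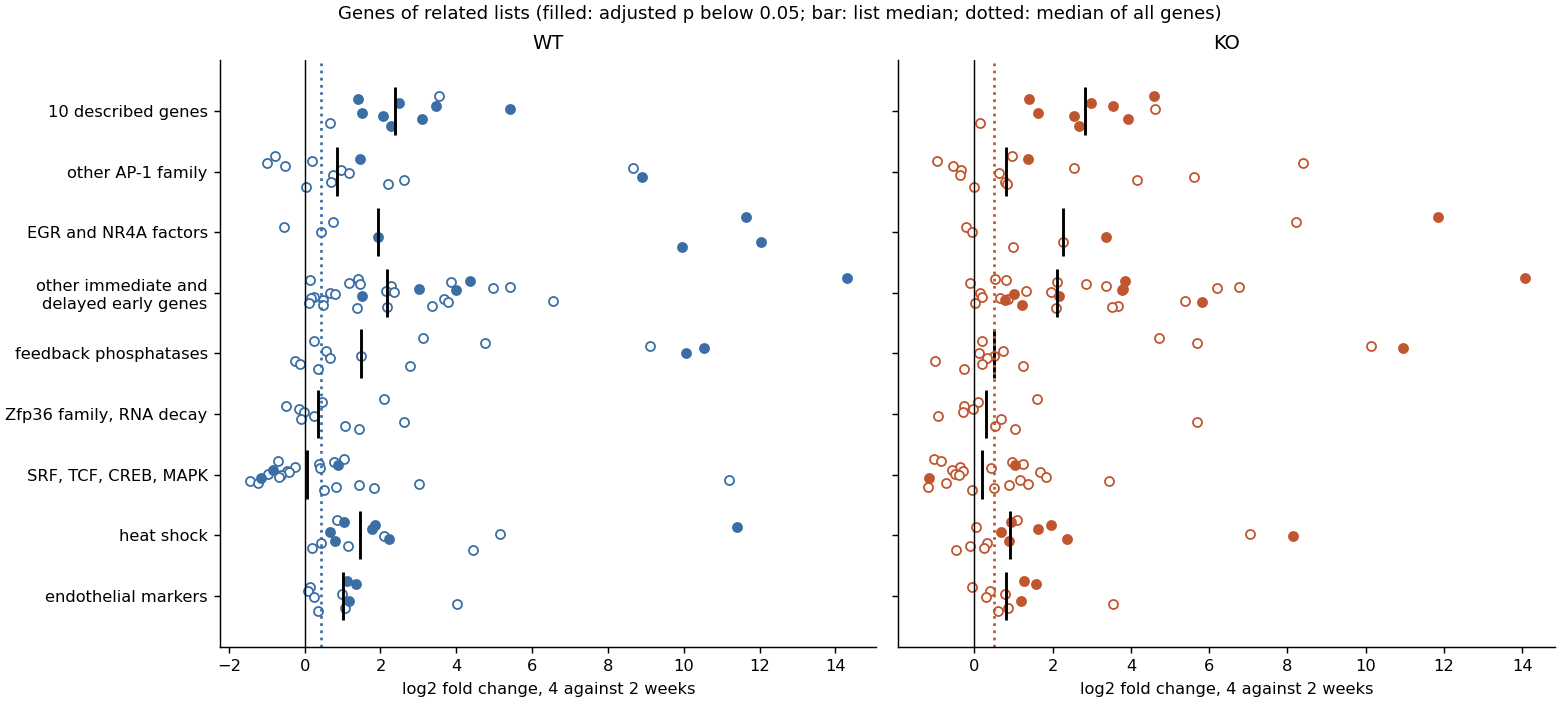
Log2 fold change between 4 and 2 weeks for the tested genes of 9 lists, in WT (left) and KO (right); each point is 1 gene, filled where it passed an adjusted p of 0.05, with list medians as bars and the median of all genes dotted. Values above 8 belong to genes at or near 0 counts at 2 weeks, whose estimate depends on the prior count. Bars of the 10 genes stand at 2.38 and 2.83, and those of the SRF, TCF, CREB and MAP kinase list at 0.06 and 0.18.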

How the data were processed

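The deposited tables hold counts per gene for each library, unnormalized. Per the submitters' processing notes, cutadapt, STAR and HTSeq 0.6.1p1 were used with the genome build GRCm38 (mm10); the strand setting is not given in the sources used here. Counts of 49585 gene identifiers were tested as deposited with edgeR 4.0.16 (filterByExpr, TMM scaling, robust quasi-likelihood, sex as covariate), with Benjamini-Hochberg adjustment over all genes of a fit and a threshold of 0.05. KO and WT were compared within each time; contrasts across times used 1 fit of all 17 libraries. DESeq2 1.42.0, limma voom 3.58.1, other scalings and filters, and leaving out libraries were alternatives. CPM and RPKM were computed on the library total, RPKM with GENCODE merged exon length. A count of 0 allows up to 3 counts; intervals of 95% come from the fits. The 10 genes and all lists were chosen with earlier results of these data known. From each list, up to 3 genes that passed with the smallest p are named, or else the 2 with the smallest unadjusted p. The labels do not say that libraries come from separate animals, so p-values measure the spread between these libraries. The fits were also run on simulated data, and that outcome is not reported here.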

Additional observations from a re-analysis of the deposited data

Results flagged for a closer look

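Of the 40 sets of 1 gene in 1 group of libraries, 3 held a library far from the others, and chance gives about 1 in 20. Jund in WT f3 at 4 weeks was the lowest of its group with 21.1 CPM. Egr1 in WT f4 at 2 weeks was the highest of its group with 499 CPM. Ier2 in KO f1 at 2 weeks was the highest of its group with 503 CPM. No cause was tested.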

How the results depend on the processing

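Without 2-week KO m2 and m3, 5 of the 10 genes passed over time in KO, against 8, and limma voom passed 5 in each genotype. Leaving out 1 library gave 7 to 8 in WT and 6 to 9 in KO, and 0 for the genotype tests and the interaction.

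Genes passing between genotypes were 0 by edgeR, but 31 (all 17 libraries in 1 fit), 149 (DESeq2) and 12 (limma voom) at 2 weeks and 17 (DESeq2) at 4 weeks; leaving out 1 library gave 0. Over time, 1086 passed in WT and 994 in KO. DESeq2 gave 2938 and 2873, no low-count filter 580 and 567, 10 counts in every library 639 and 626, and leaving out 1 library 588 to 1261 and 504 to 1222. The interaction gave 12, and 1303 (DESeq2), 5 (limma voom), 6 (no filter), 0 (10 counts), 251 (without KO m2 and m3) and 7 to 51 (leaving out 1 library).

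Estimates between genotypes changed sign for genes that did not pass. At 2 weeks Fos gave -0.45 with limma voom, -0.073 without sex and -0.17 with the replicate block, Fosb -0.50 (limma voom) and -0.13 (without sex), Atf3 0.0062 (block) and Dusp1 0.21 (without KO m2 and m3). At 4 weeks Fosb gave 0.011 without sex, Jun -0.010 with limma voom, and males alone gave 0.12 and 0.24 for Fosb, 0.12 and 0.15 for Egr1 and 0.13 and 0.17 for Zfp36, with and without the block. Over time in KO, Jund gave -0.0028 (limma voom). For the interaction, Fos gave -0.13 and Ier2 -0.20 without KO m2 and m3, Fosb 0.14 without sex, and Dusp1 0.19 (limma voom) and 0.026 (block).

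Leaving out 1 library moved estimates across 0 within these ranges. At 2 weeks they were -1.38 to 0.31 for Atf3, -0.56 to 0.077 for Dusp1, -0.71 to 0.073 for Egr1, -0.63 to 0.45 for Fos, -1.63 to 1.32 for Fosb, -0.67 to 0.057 for Ier2 and -0.059 to 0.66 for Jund. At 4 weeks they were -0.0097 to 0.30 for Atf3, -0.30 to 0.16 for Egr1, -0.51 to 0.25 for Fosb, -0.084 to 0.16 for Jun, -0.24 to 0.15 for Jund and -0.24 to 0.18 for Zfp36. For Jund over time in KO the range was -0.12 to 0.39. For the interaction they were -0.20 to 0.31 for Dusp1, -0.23 to 0.70 for Egr1, -0.24 to 0.50 for Fos and -0.11 to 0.48 for Ier2. The cause was not tested.

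The labels do not say whether replicate numbers pair the libraries, and the correlations do not decide it. Same-numbered WT and KO libraries correlated at -0.023 to 0.032 at 2 weeks, where differently numbered ones gave -0.044 to 0.039. In 4-week males, same-numbered libraries correlated at 0.285, 0.048 and 0.501 for m1, m2 and m3, where differently numbered ones gave -0.405 to 0.184. There m2 did not correlate best with its own number. The replicate block passed 0 of the 10 and 0 of all genes in each genotype test and in the interaction. The median of all genes over time, 0.42 in WT and 0.49 in KO, was 1.38 and 1.66 with limma voom, 0.0025 and -0.024 with 10 counts in every library and 1.19 in KO without m2 and m3. Males alone and the term for Kdr were chosen after the data were seen. Other transforms passed 0 pairs of correlations at 2 weeks.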
